A study of Mus musculus with 8 samples.

Results

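The 8 genes described here are Ppara, 5 of its targets that lie outside fatty acid oxidation (Vnn1, Angptl4, Pdk4, Creb3l3 and Mgll) and 2 enzymes of ketone body metabolism (Bdh1 and Acat1). They were taken by symbol from count lists of 25239 gene symbols, and all 8 were found. They were selected on measured values, the fold changes between these same groups of livers, with earlier results known, so their differences between groups are given as a description. Counts of those that passed a test over all genes are given beside the shares of all genes, and nothing is read from them. Liver RNA of 8 adult male mice on a C57Bl6/J background was sequenced in bulk. Every mouse carried the Smo tm2Amc allele, in which part of Smo is flanked by loxP sites, on both chromosomes (Smo flox/flox), and every mouse was fed the CDA-HFD, a choline-deficient, L-amino acid-defined high-fat diet, for 6 weeks and injected by tail vein with an adeno-associated virus of serotype 8 in the last week, 1 week before sacrifice. In the 4 control mice (titled Smo-Luc) the virus was AAV8-TBG-Luciferase, and in the 4 Smo-KO mice (titled Smo-Cre) it was AAV8-TBG-Cre Recombinase. TBG is a promoter active in hepatocytes, so Cre was directed to these cells, and other liver cells keep the floxed gene. No group on a chow diet or without a vector was analysed here, and the controls, labelled WT, carry the floxed allele too. Because the RNA came from whole liver, fewer cells of a type and less RNA per cell cannot be told apart.

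PPAR alpha, the product of Ppara, is a nuclear receptor that is activated by fatty acids. Paired with the retinoid X receptor it binds DNA at direct repeats of the element AGGTCA and switches on genes for the use of fat, above all in the fasted liver. Its best known targets are enzymes of fatty acid oxidation, but it also acts on genes for fat storage, lipoprotein clearance and fuel choice. The acetyl-CoA from fatty acid oxidation is turned in liver mitochondria into the ketone bodies acetoacetate and beta-hydroxybutyrate, which other organs burn. Acat1 encodes a thiolase that interconverts acetyl-CoA and acetoacetyl-CoA, and Bdh1 encodes the dehydrogenase that interconverts the 2 ketone bodies.

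In assembly GRCm38.p6, of the build that the submitters' notes name, Ppara lies at chr15:85734910-85806851, Vnn1 at chr10:23894688-23905344, Angptl4 at chr17:33774900-33781575 and Pdk4 at chr6:5483351-5496278. Creb3l3 lies at chr10:81084329-81098872, Mgll at chr6:88724412-88828360, Bdh1 at chr16:31422297-31458901 and Acat1 at chr9:53580522-53610350. In the GENCODE M21 annotation, 6 of the 8 share no exonic base with another gene. Exons of Bdh1 share 13.7% of their bases with Gm15743 on the opposite strand, and those of Mgll share 3.29% with Gm26588. Whether the counting used the strand is not given in the sources used here, so reads in these stretches may belong to either gene or may not have been counted.

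RefSeq promoter windows of GRCm38.p6, which run from 250 bases before to 50 bases after a gene's start, matched 5 of the 8 genes with 8 windows (Ppara, Pdk4, Creb3l3, Mgll and Bdh1), and not Vnn1, Angptl4 or Acat1. The windows were searched on both strands for 2 copies of AGGTCA in the same direction with 1 base between them, with up to 2 mismatches to the 12 fixed letters, and for AGGTCA alone. Of the 8 windows, 1 held a match to the repeat, against 3.86% of all 32851 windows, and the same window held the only exact AGGTCA, which lies inside that match and which 16.3% of all windows hold. This window belongs to a second start of Creb3l3, inside the gene. These stretches are shown, all in the direction of the gene and up to its start: those of both Creb3l3 windows, since Creb3l3 is one of the 2 genes whose groups did not overlap, and that of Pdk4, whose level varied most between mice. Capitals mark the match to the repeat, which has 2 mismatches. A match describes letters only and is not a site at which binding was measured.
Creb3l3, inner start, chr10:81092592-81092841, minus strand: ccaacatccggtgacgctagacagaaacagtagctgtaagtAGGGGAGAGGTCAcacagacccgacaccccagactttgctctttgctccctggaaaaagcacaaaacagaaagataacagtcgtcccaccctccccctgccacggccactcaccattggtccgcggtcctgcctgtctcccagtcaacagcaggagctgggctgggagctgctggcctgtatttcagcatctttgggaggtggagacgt
Creb3l3, outer start, chr10:81098873-81099122, minus strand: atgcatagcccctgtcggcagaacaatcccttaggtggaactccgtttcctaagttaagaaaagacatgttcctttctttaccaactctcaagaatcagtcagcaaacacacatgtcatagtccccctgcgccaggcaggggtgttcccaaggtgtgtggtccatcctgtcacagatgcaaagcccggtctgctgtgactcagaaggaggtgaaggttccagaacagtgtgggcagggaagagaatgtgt
Pdk4, chr6:5496279-5496528, minus strand: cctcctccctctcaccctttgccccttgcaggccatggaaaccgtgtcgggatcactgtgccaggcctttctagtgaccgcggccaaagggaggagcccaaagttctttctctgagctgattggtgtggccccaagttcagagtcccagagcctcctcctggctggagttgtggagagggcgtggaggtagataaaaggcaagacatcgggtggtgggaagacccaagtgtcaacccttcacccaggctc

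Reads counted on genes ranged from 8203299 to 9999732 in a liver. Levels are given in CPM, the reads of a gene per 1e+06 reads on all genes of that liver, scaled by edgeR's TMM method, and the 8 genes had from 157 (Vnn1) to 7367 (Bdh1) reads in a liver, far above 3 reads, which correspond to between 0.296 and 0.365 CPM. All 8 passed edgeR's filter on low counts. The targeted gene was checked first. Smo had from 72 to 88 reads in control livers and from 35 to 55 in Smo-KO livers, and its mean in Smo-KO livers was 54.3% of the control mean (log2 fold change -0.88 with a standard error, SE, of 0.16). A two-sided exact permutation test on Smo gave p = 0.0286, the smallest possible with 4 mice against 4, and edgeR's quasi-likelihood test gave p = 0.0957 once adjusted over all genes. The markers of hepatocytes were present in every liver, with albumin (Alb) between 14246 and 17659 CPM.

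The 8 genes did not move as a block. The receptor and its 5 targets outside oxidation were higher on average in Smo-KO than in control livers, from 1.17-fold (Ppara) to 1.85-fold (Vnn1), while the 2 ketone body enzymes stood close to the control level, at 0.955-fold (Bdh1) and 0.975-fold (Acat1). In Vnn1 and Creb3l3 all 4 Smo-KO livers lay above all 4 control livers. In the other 6 genes the groups overlapped.

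**Figure D1:**
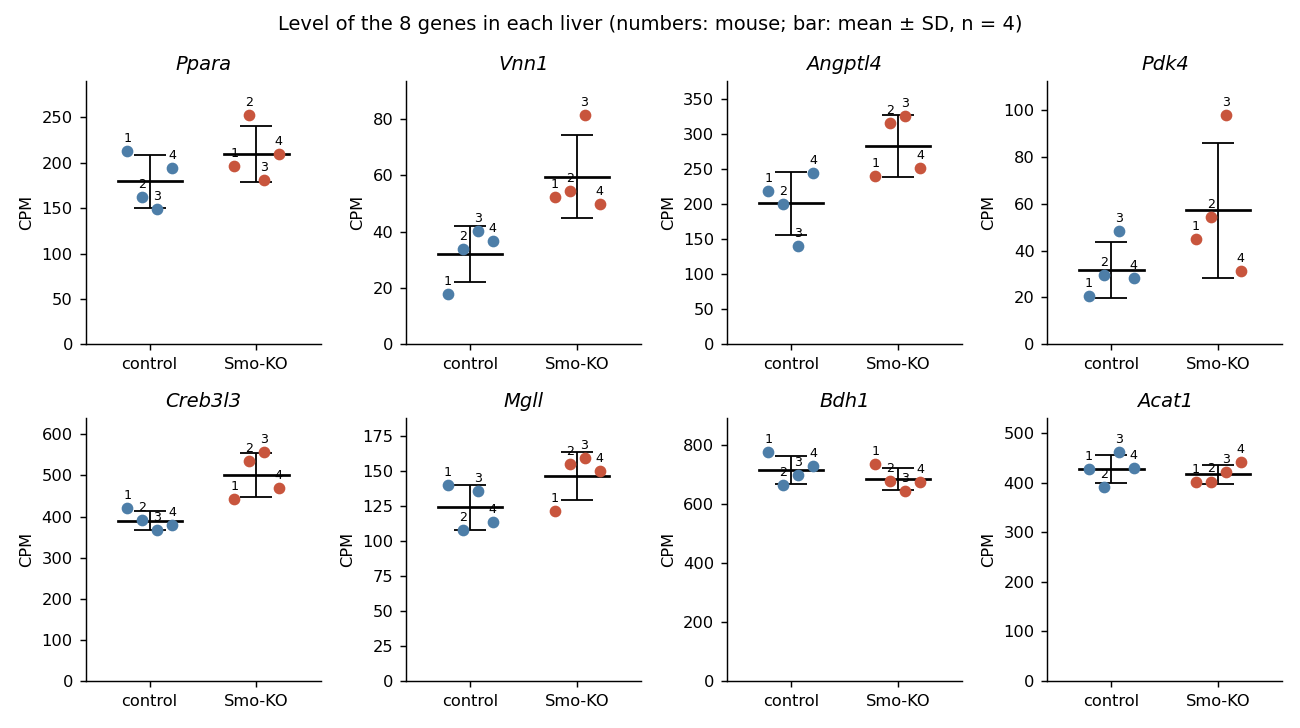
Level (CPM) of each of the 8 genes in each liver, control at left and Smo-KO at right in each panel; points are livers numbered by mouse, the long line is the mean and the bar is the SD (n = 4), and every axis starts at 0. The Smo-KO points lie above all control points in Vnn1 and Creb3l3, and the groups lie on top of each other in Bdh1 and Acat1.

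Ppara itself was at 213, 162, 149 and 194 CPM in controls 1 to 4 and at 196, 252, 181 and 210 CPM in Smo-KO livers 1 to 4. The ranges overlapped, and only Smo-KO mouse 2 lay above the highest control. The means were 180 ± 28.9 and 210 ± 30.7 CPM (n = 4 each, ± SD), a log2 fold change of 0.23 (SE 0.13) that was 0.13 without Smo-KO mouse 2 and 0.32 without control mouse 1.

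Vnn1 encodes vanin, a pantetheinase on the cell surface that releases pantothenate and cysteamine. It was at 17.8, 33.8, 40.2 and 36.7 CPM in controls 1 to 4 and at 52.4, 54.5, 81.4 and 49.8 CPM in Smo-KO livers 1 to 4. Control mouse 1 was the lowest and Smo-KO mouse 3 the highest, and the lowest Smo-KO liver still lay above the highest control. Its log2 fold change was 0.88 (SE 0.22), with means of 32.1 ± 9.90 and 59.5 ± 14.7 CPM (n = 4 each, ± SD), and it ran from 0.69 to 1.01 over the 8 fits that lacked 1 mouse.

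Creb3l3 encodes CREBH, a transcription factor that sits in the membrane of the endoplasmic reticulum until it is cut free. It was at 422, 392, 367 and 380 CPM in controls and at 443, 534, 557 and 470 CPM in Smo-KO mice. The groups did not overlap, but the gap between control mouse 1 and Smo-KO mouse 1 was narrow. The means were 390 ± 23.4 and 501 ± 53.5 CPM (n = 4 each, ± SD), a log2 fold change of 0.36 (SE 0.10), smaller than that of Vnn1 but measured with less spread, at a coefficient of variation of 5.99% in control and 10.7% in Smo-KO livers.

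Angptl4 encodes a secreted inhibitor of lipoprotein lipase. Its level was 219, 199, 140 and 244 CPM in controls 1 to 4 and 239, 315, 325 and 251 CPM in Smo-KO livers 1 to 4. Overlap came from 1 pair of livers, since Smo-KO mouse 1 lay just under control mouse 4. Its log2 fold change was 0.49 (SE 0.16), from 201 ± 44.4 to 283 ± 43.7 CPM (n = 4 each, ± SD).

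Pdk4 encodes the kinase that shuts down pyruvate dehydrogenase and so spares glucose. It was at 20.6, 29.4, 48.3 and 28.3 CPM in controls and at 45.0, 54.4, 97.7 and 31.3 CPM in Smo-KO mice. This was the most variable of the 8 genes, with a coefficient of variation of 37.2% in control and 50.2% in Smo-KO livers. The means of 31.7 ± 11.8 and 57.1 ± 28.7 CPM (n = 4 each, ± SD) gave a log2 fold change of 0.84 (SE 0.31), and much of it rested on Smo-KO mouse 3, without which it was 0.46. Without control mouse 3, the highest control, it was 1.13.

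Mgll encodes monoglyceride lipase, the last enzyme in the breakdown of triglyceride. Its level was 140, 107, 135 and 113 CPM in controls and 121, 155, 159 and 150 CPM in Smo-KO mice. Of the 4 Smo-KO livers, 3 lay above the highest control, and Smo-KO mouse 1 lay within the control range. The log2 fold change was 0.24 (SE 0.11), with means of 124 ± 15.9 and 146 ± 17.3 CPM (n = 4 each, ± SD).

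Bdh1 was at 775, 662, 697 and 728 CPM in controls and at 736, 677, 645 and 675 CPM in Smo-KO mice. Acat1 was at 428, 391, 462 and 430 CPM and at 401, 402, 422 and 442 CPM, respectively. In both genes the highest liver was a control, and in both 3 of the 4 Smo-KO livers lay below the control mean. Their log2 fold changes of -0.07 (SE 0.09) and -0.04 (SE 0.08) were smaller than these errors, without control mouse 1 Bdh1 was at -0.03 and without control mouse 3 Acat1 was at 0.01, and the coefficient of variation within a group was at most 6.75% for each.

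By the thresholds applied to all genes, the quasi-likelihood fit called 0 of the 8 genes at an adjusted p under 0.05, and 0% of the 12977 genes tested. At an unadjusted p under 0.05 the test had 4 of the 8, all higher in Smo-KO livers (Vnn1, Creb3l3, Angptl4 and Pdk4), where 13.8% of all genes were at that level (6.7% higher and 7.15% lower). DESeq2's Wald test gave an adjusted p under 0.05 for 2 of the 8 (Vnn1 and Creb3l3), where 1.26% of all genes had one. Groups did not overlap in 2 of the 8, both higher, where this held for 7.37% of all genes (3.03% higher and 4.34% lower). The log2 fold change was above 0 in 6 of the 8 and in 49.9% of all genes. The median log2 fold change was 0.30 over the 8 genes and 0.00 over all genes tested. Since the genes were proposed from this comparison, nothing is read from these counts.

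**Figure D2:**
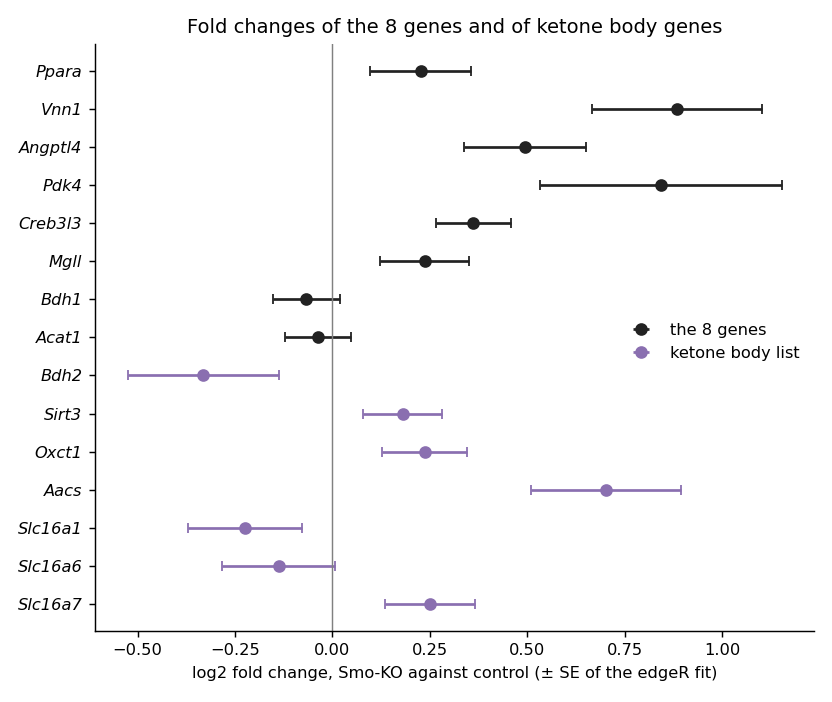
Log2 fold change of Smo-KO against control livers for the 8 genes (black) and for the 7 tested genes of the ketone body lists (purple); bars are the SE of the edgeR fit over 4 and 4 livers. The receptor and the 5 targets stand to the right of 0, Bdh1 and Acat1 at 0, and the ketone body genes on both sides.

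The mice did not rank alike across the genes. Of the 8 genes, Smo-KO mouse 3 had the highest level in its group in 5 (Vnn1, Angptl4, Pdk4, Creb3l3 and Mgll), yet its Ppara and Bdh1 were the lowest. Smo-KO mouse 2 had the highest Ppara. Smo-KO mouse 1 was the lowest of its group in 4 genes (Angptl4, Creb3l3, Mgll and Acat1) and the highest in Bdh1. The same mouse had the highest Smo of its group, 5.66 CPM against 3.92 to 4.37 CPM, and whether the 2 are linked was not tested. Without Smo-KO mouse 1 the number of genes whose groups did not overlap was 4 of the 8 (Vnn1, Angptl4, Creb3l3 and Mgll), where 8.06% of all genes tested were then higher without overlap.
Among the controls, mouse 3 combined the highest Pdk4, Vnn1 and Acat1 with the lowest Ppara, Angptl4 and Creb3l3, and mouse 1 combined the lowest Pdk4 and Vnn1 with the highest Ppara, Creb3l3, Mgll and Bdh1. In Smo-KO mice 2 and 3 both Pdk4 and Angptl4 were above every control. In Smo-KO mouse 4, Pdk4 was at 98.9% of the control mean while Vnn1 was at 155%.

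**Figure D3:**
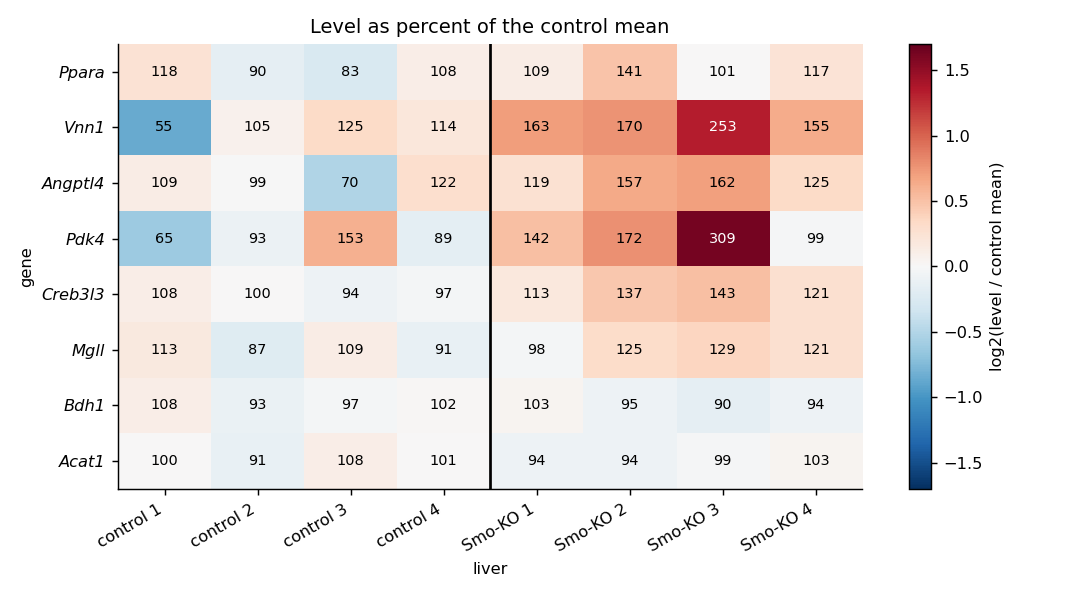
Level of each of the 8 genes (rows) in each liver (columns) as a percent of the gene's control mean, printed in each cell; color is the same ratio on a log2 scale, red above and blue below the control mean. Pdk4 and Vnn1 in Smo-KO mouse 3, at 309% and 253%, are the highest cells, and the Bdh1 and Acat1 rows stay between 90.1% and 108%.

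To compare the genes with each other, levels were divided by the length of the longest GENCODE M21 transcript. On this scale, in control livers, Bdh1 stood at 226 ± 15.2 CPM per kilobase, Creb3l3 at 170 ± 10.2 and Acat1 at 126 ± 8.48 (SD, n = 4). Then came Angptl4 at 60.7 ± 13.4 and Ppara at 52.6 ± 8.47, which did not differ beyond their spread, and Mgll at 31.1 ± 3.99. Vnn1 at 13.3 ± 4.10 and Pdk4 at 9.09 ± 3.38 CPM per kilobase were the lowest, and their ranges of ± 1 SD overlapped. With the mean transcript length in place of the longest, these last 2 changed places. In Smo-KO livers Creb3l3, at 218 ± 23.3 CPM per kilobase, stood level with Bdh1, at 216 ± 12.02.

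**Figure D4:**
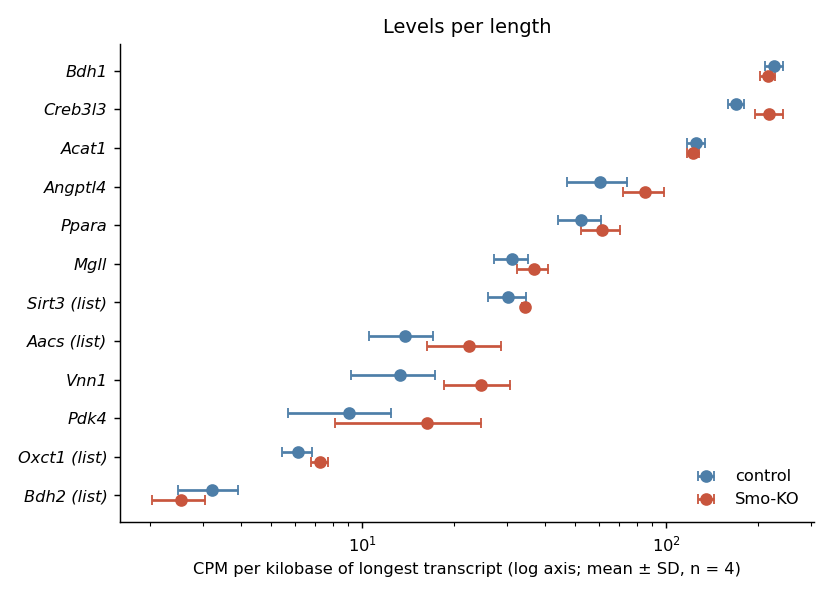
Level in CPM per kilobase of the longest transcript, on a log axis, of the 8 genes and of 4 genes of the ketone body lists (marked list); points are group means and bars the SD (n = 4), blue for control and red for Smo-KO livers. Bdh1, Creb3l3 and Acat1 lie above the 4 list genes, and Vnn1 and Pdk4 lie lowest of the 8.

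Other ketone body genes were taken from 2 further lists. Of 3 genes listed with synthesis, 2 had enough reads to test, and 0 of the 2 had an unadjusted p under 0.05 in edgeR's test. Sirt3, a mitochondrial deacetylase, was at 0.18 (SE 0.10) and Bdh2, a cytosolic dehydrogenase, at -0.33 (SE 0.19), or 0.28 and -0.20 without control mouse 1. Hmgcll1 had at most 3 reads in a liver.
Of the 5 genes for transport and use of ketone bodies, 3 had an unadjusted p under 0.05, all higher in Smo-KO livers, and 0 passed an adjusted p under 0.05. Among all genes, 6.7% were higher at that unadjusted level and 3.03% were higher without overlap. Aacs, the cytosolic enzyme that returns acetoacetate to lipid synthesis, was at 59.6, 39.6, 35.6 and 44.0 CPM in controls and at 52.0, 97.1, 79.9 and 61.8 CPM in Smo-KO mice. Smo-KO mouse 1 lay within the control range and the other 3 above it, with a log2 fold change of 0.70 (SE 0.19; edgeR adjusted p 0.172, 0.0323 in DESeq2's Wald test). Oxct1, the transferase with which organs other than the liver burn ketone bodies, was low, from 21.7 ± 2.47 to 25.6 ± 1.64 CPM (n = 4 each, ± SD; log2 fold change 0.24, SE 0.11, edgeR adjusted p 0.355), without overlap. The monocarboxylate transporter Slc16a7 was at 0.25 (SE 0.11), and Slc16a1 and Slc16a6 were at -0.22 (SE 0.15) and -0.14 (SE 0.14). Without control mouse 3 these were 0.17, -0.04 and -0.07.

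The partners of the receptor stood on both sides of 0, 8 above and 8 below. Of 16 genes for other PPARs, retinoid X receptors and coregulators, 1 was higher and 1 lower at an unadjusted p under 0.05 (Sirt1, a deacetylase, at a log2 fold change of 0.40, SE 0.13, and Crebbp, an acetyltransferase, at -0.42, SE 0.19), 0 passed an adjusted p under 0.05, and the list's median was -0.01. At that unadjusted level, 6.7% of all genes were higher and 7.15% lower. Rxra, the main partner of PPAR alpha in liver, was at 471 ± 42.8 CPM in control and 489 ± 59.1 CPM in Smo-KO livers (n = 4 each, ± SD). Next by p in each direction were Rxrb at 0.15 (SE 0.10; 0.23 without control mouse 1) and Ncoa1 at -0.22 (SE 0.12). Ppargc1a, the coactivator PGC1 alpha, was at 7.49 ± 0.499 and 6.97 ± 1.16 CPM; it and Rxra were named after their values were seen.

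Other targets of PPAR alpha were taken from 2 lists. Of 22 targets outside oxidation, 20 were tested, of which 16 had a log2 fold change above 0. At an unadjusted p under 0.05, 8 were higher and 2 lower in edgeR's test, 0 passed an adjusted p under 0.05, and the groups did not overlap in 2 higher and 1 lower gene. Of all genes, 49.9% were above 0, and 6.7% were higher and 7.15% lower at that unadjusted level. Without overlap, 3.03% of all genes were higher and 4.34% lower. The list's median log2 fold change was 0.25. Txnip, the thioredoxin-interacting protein, had the smallest p (log2 fold change 0.94, SE 0.14, edgeR adjusted p 0.0785), followed by the fatty acid transporter Slc27a1 (0.49, SE 0.12). DESeq2's Wald test called both, at adjusted p-values of 6.9e-07 and 0.0421, and edgeR called Txnip with no filter (adjusted p 0.00555), without Smo-KO mouse 1 (adjusted p 0.0242) and without control mouse 1 (adjusted p 0.0413). Against the list stood Fgf21, a hormone of the fasted liver, at -1.48 (SE 0.52; -2.43, edgeR adjusted p 0.0265, without Smo-KO mouse 1) and Gpd1, a glycerol phosphate dehydrogenase, at -0.33 (SE 0.12).
In the list of 28 oxidation targets, all tested, 27 had a log2 fold change above 0, 18 were higher and 0 lower at an unadjusted p under 0.05, and 0 passed an adjusted p under 0.05 with edgeR (5 in DESeq2's Wald test). Over all genes, 49.9% were above 0, 6.7% were higher and 7.15% lower at that unadjusted level, and DESeq2 called 1.26%. In this list the groups did not overlap in 7, all higher, where 3.03% of all genes were higher without overlap, and in 20 without Smo-KO mouse 1, where that share was 8.06%. The median log2 fold change was 0.34. The smallest p-values belonged to Acaa1b, a peroxisomal thiolase with a close paralog (log2 fold change 0.55, SE 0.11, edgeR adjusted p 0.116), and the carnitine transporter Slc22a5 (0.59, SE 0.13, adjusted p 0.126), with adjusted p-values of 0.00117 and 0.00902 in DESeq2. With no filter edgeR called both (adjusted p 0.0388 and 0.0442), and without Smo-KO mouse 1 it called Acaa1b (adjusted p 0.0242). Etfdh, at -0.13 (SE 0.11), was the 1 gene below 0, and stood at -0.04 without control mouse 3. Many of the genes in both lists were known from earlier results to be higher in these livers, so their counts are a description too.

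**Figure D5:**
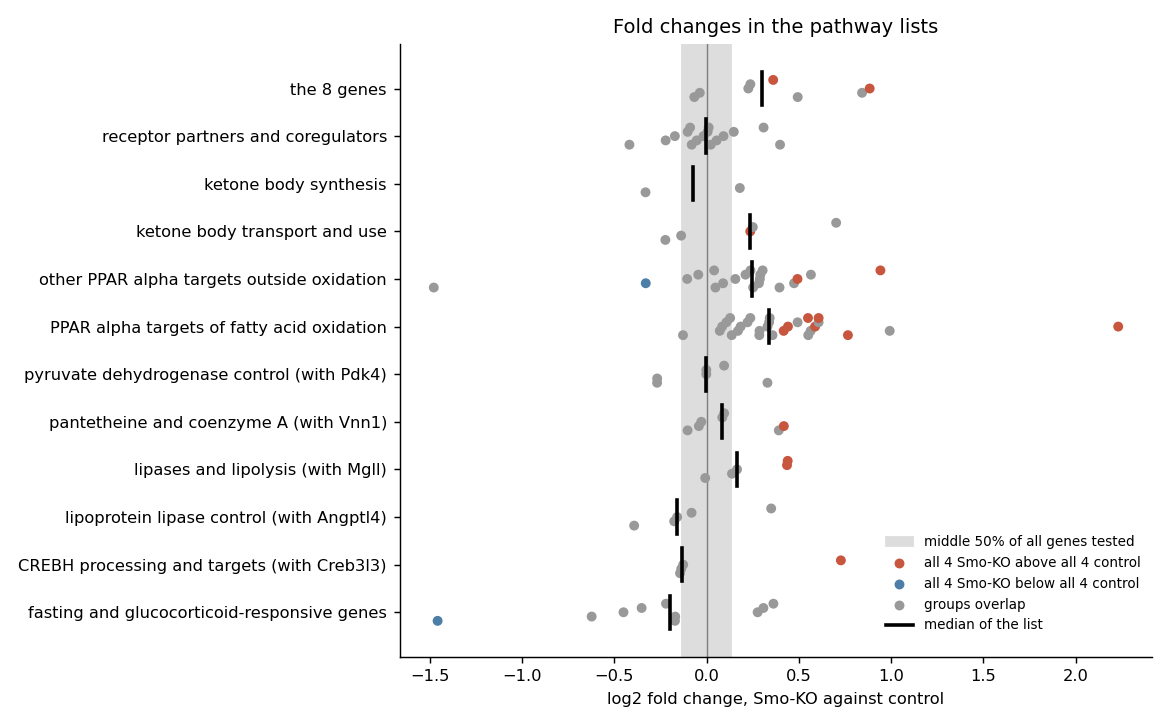
Log2 fold change of each tested gene in the 8-gene group and in 11 pathway lists (rows); red points are genes with all 4 Smo-KO livers above all 4 controls, blue points the reverse, grey points overlap, black bars list medians, and the grey band the middle 50% of all genes tested. The medians of the 8 genes and of both PPAR alpha target lists lie right of the band and those of the receptor partners and of ketone body synthesis within it.

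Across mice, the median difference from the control mean over the 8 genes was 0.16, 0.48, 0.44 and 0.26 (log2 CPM) in Smo-KO mice 1 to 4, and that over the 28 oxidation targets was 0.04, 0.31, 0.56 and 0.35. Smo-KO mouse 1 was the lowest of its group in both. The number of oxidation targets above every control was 10, 21, 27 and 22 of 28 in Smo-KO mice 1 to 4.

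Genes that act beside single members were examined in 5 short lists, with 0 genes at an adjusted p under 0.05 in edgeR's test. Over all genes, 6.7% were higher and 7.15% lower at an unadjusted p under 0.05, and 3.03% were higher without overlap. Beside Mgll, of 5 genes of lipolysis 2 were higher at an unadjusted p under 0.05 and without overlap, the triglyceride lipase Pnpla2 (log2 fold change 0.44, SE 0.11; edgeR adjusted p 0.156, 0.0333 in DESeq2's) and the hormone-sensitive lipase Lipe (0.44, SE 0.14), while Faah, an amide hydrolase, was at -0.01 (SE 0.10), or 0.09 without control mouse 1. Beside Vnn1, of 7 genes for pantetheine and coenzyme A, 2 were higher at that level, the pantothenate kinase Pank1 (0.42, SE 0.12), without overlap, and the decarboxylase Ppcdc (0.39, SE 0.14). Coasy and Pank3 stood at -0.10 (SE 0.09) and -0.04 (SE 0.11), and at -0.16 and -0.12 without Smo-KO mouse 2. Coasy was at -0.06 without Smo-KO mouse 3 and Pank3 at 0.04 without Smo-KO mouse 1.
Beside Pdk4, of 6 genes that control pyruvate dehydrogenase, 1 was higher (the phosphatase Pdp2, at 0.33, SE 0.13, or 0.21 without Smo-KO mouse 2) and 1 lower (the subunit Pdha1, at -0.27, SE 0.12) at an unadjusted p under 0.05. Neither of the other named kinases was, with Pdk2 at 0.09 (SE 0.14) and Pdk3 at -0.27 (SE 0.31). Pdk2 was at 0.26 without control mouse 1, and without control mouse 3 Pdk2 was at 0.00 and Pdk3 at 0.04. Beside Angptl4, of 5 genes listed with the control of lipoprotein lipase, 1 was higher at that level, the lipase Lpl itself, at 258 ± 33.7 CPM in control and 329 ± 33.0 CPM in Smo-KO livers (n = 4 each, ± SD; log2 fold change 0.35, SE 0.11). Angptl8, a further inhibitor of it, was at -0.39 (SE 0.29), or -0.82 without Smo-KO mouse 1 and -0.23 without Smo-KO mouse 2, and the hepatic lipase Lipc at -0.08 (SE 0.10), or -0.02 and -0.15 without the same mice. Beside Creb3l3, 1 of 4 genes was higher, Apoc2, an activator of lipoprotein lipase (0.73, SE 0.26, at 2.67 and 4.40 CPM). Apoa4, listed like Apoc2 as a target of CREBH and named after its values were seen, was at -0.14 (SE 0.19). Its level was 1662 ± 474 CPM in control and 1511 ± 336 CPM in Smo-KO livers (n = 4 each, ± SD). The proteases that cut CREBH free, Mbtps1 and Mbtps2, were at -0.13 (SE 0.08) and -0.14 (SE 0.13). Mbtps2 was at -0.23 without control mouse 1 and at -0.06 without control mouse 3.

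Since Pdk4 and Angptl4 also answer to fasting and glucocorticoids, 10 genes of that kind were examined. At an unadjusted p under 0.05, where 6.7% of all genes were higher and 7.15% lower, 0 of the 10 were higher and 1 lower. The lower gene was Ddit4 (log2 fold change -1.46, SE 0.29, edgeR adjusted p 0.116), an inhibitor of mTOR signaling. DESeq2 called it (adjusted p 0.0364), as did edgeR with no filter (adjusted p 0.0199), without Smo-KO mouse 1 (adjusted p 0.02002) and with the replicate block (adjusted p 0.0457). Tat, a tyrosine aminotransferase, was at -0.62 (SE 0.31), and Fkbp5 and Per1 at 0.36 (SE 0.18) and 0.28 (SE 0.28). Single mice moved these values by much: Tat was at -0.35 without Smo-KO mouse 3, and Per1 at 0.03 and Fkbp5 at 0.24 without control mouse 3. In the other direction, Per1 was at 0.44 without control mouse 1 and Fkbp5 at 0.59 without control mouse 4. The list's median difference from the control mean was 0.17, 0.11, -0.73 and -0.44 (log2 CPM) in Smo-KO mice 1 to 4, so it was lowest in Smo-KO mouse 3, in which Pdk4 was highest. The part of feeding state in the levels of the 8 genes was not tested.

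Markers of other cells were read beside these values. Fat and muscle also express Angptl4, Pdk4 and Mgll. Of 5 adipocyte markers Lep had 0 reads in every liver and none had more than 1 read in a liver, and of 6 muscle markers Myh4, Myh6 and Mb had 0 reads in every liver and Acta1 from 3 to 26 reads in control and at most 2 in Smo-KO livers. The summed adipocyte level was at most 0.209 CPM and the summed muscle level at most 2.68 CPM in a liver, the latter in control mouse 3, and the part of these tissues in the values of the 8 genes was not tested. The 6 markers of T and NK lymphocytes, led by Nkg7, summed to 50.2, 53.8, 43.5 and 59.8 CPM in controls 1 to 4 and to 23.3, 20.05, 32.9 and 34.0 CPM in Smo-KO livers 1 to 4, without overlap (exact permutation test, two-sided p = 0.0286, adjusted p 0.229 over 8 marker lists). With 4 mice against 4 this p is the smallest possible, so over 8 lists 1 separated list alone could not reach an adjusted p under 0.05. All 5 of these lymphocyte genes that could be tested were lower at an unadjusted p under 0.05, 4 of them without overlap, DESeq2 called 4 of the 5 at an adjusted p under 0.05, and the other, Klrb1c, had at most 3 reads in a liver and 0 in Smo-KO mouse 4. Of all genes, 7.15% were lower at that unadjusted level, 4.34% were lower without overlap, and DESeq2 called 1.26%. The part of T and NK lymphocytes in the values of the 8 genes was not tested. Summed markers overlapped between groups for hepatocytes (29440 ± 2560 CPM in control and 29198 ± 656 CPM in Smo-KO livers), macrophages and Kupffer cells (1426 ± 258 and 1382 ± 288 CPM), stellate cells and fibroblasts (936 ± 58.9 and 854 ± 135 CPM), endothelial cells (171 ± 15.3 and 141 ± 43.6 CPM) and cholangiocytes (148 ± 41.9 and 176 ± 45.4 CPM; SD, n = 4 each), with exact permutation p-values from 0.314 to 0.914, two-sided. Within these lists, the hepatocyte marker Cps1 was lower at an unadjusted p under 0.05 in edgeR's test and without overlap (log2 fold change -0.33, SE 0.10). Col1a1 of stellate cells (-0.36, SE 0.13) and Pecam1 of endothelial cells (-0.50, SE 0.20) were lower at that level with overlap. All 5 endothelial markers were below 0. In these lists 0 markers were higher at that level, and 0 passed an adjusted p under 0.05.

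Genes that varied most like these genes from mouse to mouse, once group means were removed, were found among 12969 other genes over the 8 livers. The deviations of Ppara were followed most closely by Cyp2c38, a cytochrome P450 (Pearson's r 0.975), then by 1110051M20Rik (0.965), Adssl1 (0.964), Uox, the urate oxidase (0.961), and Zdhhc9 (0.953). The mean standardised deviation of the other 7 genes was followed closely by Ubl4a (0.983), Pop1 (0.963), Rsl1d1 (0.953) and Ing3 (0.948). None of these genes is in the lists above. With 8 livers and so many genes, high values of r are found for some gene in any case, and these names are a description only.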

How the data were processed

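For each of 8 livers the authors deposited raw counts, the whole-number reads per gene symbol, without normalization. The submitters' notes name fastp, STAR 2.7.5, featureCounts 2.0.1 and GRCm38; the deposited lists end in the entries that htseq-count writes, so the counter is not settled, and annotation and strand are not given in the sources used here. Reads on no feature (8.33% ± 0.743 in control, 9.23% ± 0.330 in Smo-KO livers; SD, n = 4) and on several genes (2.55% ± 0.0719 and 2.51% ± 0.0456) were left out.

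The 8 genes, the gene lists and the tests were chosen with earlier results of these data known. Counts were fitted with edgeR 4.0.16 under R 4.3.3 (TMM scaling, filterByExpr, glmQLFit and glmQLFTest, genotype as the only term, Benjamini-Hochberg over 12977 genes); DESeq2 1.42.0 was an alternative. Standard errors follow from the F statistic. A prior count of 2 was used only for values in log2 CPM. Counting error is all that depth describes. No source says how the 4 mice of a group were housed or extracted, so p-values cover the spread between these mice only. No library was a copy of another (chi-square per degree of freedom at least 8.17 within groups). Simulated counts of 12882 genes were drawn from a negative binomial model at the fitted dispersions, with a small part of the genes changed. On these the fit recovered 87.5% of genes changed 2-fold and 52.7% of those changed 1.5-fold, with 4.77% false calls. These rates hold for such ideal counts only. They do not show which changes the fit could find in the livers, where it called 0 of 12977 genes.

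Named were Smo, the 8 genes, all genes of both ketone body lists, the 2 genes per direction with the smallest p in every other pathway list, and the 5 genes most like Ppara and most like the mean of the other 7. Some genes are not reported here and were left out of the lists. Marker genes, Rxra, Ppargc1a and Apoa4 were named outside this rule. Alternatives were other scalings, DESeq2, other filters, the replicate number as a block, and each mouse left out.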

Additional observations from a re-analysis of the deposited data

Results flagged for a closer look

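Each group of 4 livers was searched for a mouse far from the other 3, in 57 measures and so 114 groups. There were 5 such groups, where chance gives about 5.7. Vnn1 was 81.4 CPM in Smo-KO mouse 3, against 49.8 to 54.5 CPM in the other Smo-KO mice. Control mouse 1 stood apart in 2 genes: Oxct1 was 18.01 CPM, against 22.7 to 23.3 CPM, and Pank3 was 45.8 CPM, against 51.3 to 52.4 CPM. Fgf21 was 64.4 CPM in Smo-KO mouse 1, against 12.03 to 15.7 CPM. Hmgcll1 was 0.218 CPM in Smo-KO mouse 2, against 0.103 to 0.122 CPM, a difference of single reads.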

How the results depend on the processing

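Over the 15 alternatives the median log2 fold change of the 8 genes ran from 0.27 to 0.37. Vnn1, Creb3l3, Angptl4, Pdk4, Mgll and Ppara stayed above 0 and Bdh1 below 0 in each, while Acat1 ran from -0.07 to 0.01. No scaling moved the median of all genes by over 0.1. The number of the 8 whose groups did not overlap ran from 2 to 4 across the fits that left out a mouse, in which the share of all genes without overlap also rose, from 7.37% to between 9.31% and 16%. Genes with an adjusted p under 0.05 were 0 in edgeR's test, 163 by DESeq2, 61 when unfiltered, 8 with the replicate block, and from 0 to 78 without a mouse (78 without Smo-KO mouse 1, 5 without control mouse 1, 4 without Smo-KO mouse 3); among the 111 genes of the pathway lists they were 0, 10, 5, 1 (Ddit4) and from 0 to 5. Of the 8 genes, only DESeq2 called any. For Smo the log2 fold change was -0.87 with DESeq2 (adjusted p 0.00613) and -0.88 with no filter (adjusted p 0.0385), and ran from -0.997 to -0.811 without a mouse, with an adjusted p of 0.0265 without Smo-KO mouse 1. Allowing 1 or 0 mismatches, 0 of the 8 promoter windows of these genes held the repeat.

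Same-numbered mice deviated together weakly, with a correlation of deviations over genes from 0.061 to 0.187. The best partner was the mouse of the same number for 3 of 4. The main fit did not take the number as a pairing, and whether it marks one was not settled. With the replicate block 2114 genes had an unadjusted p under 0.05 in edgeR's test, against 1797 without it. At an adjusted p under 0.05 there were 8 against 0. Of 39 tested genes named from the lists, 3 changed direction in an alternative: the log2 fold change of Faah was 0.0019 with the replicate block and ran from -0.073 to 0.088 without a mouse, that of Pdk3 from -0.463 to 0.035 and that of Pank3 from -0.117 to 0.037. The cause of these changes was not tested.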
